A study of Mus musculus with 10 samples.

Results

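The cortical area patterning transcription factors are the 10 genes Pax6, Emx1, Emx2, Nr2f1, Nr2f2, Nr2e1, Sp8, Dmrta2, Dmrt3 and Gli3. They were listed by name, as factors known from cortical progenitors, without a cut on measured values. Earlier results of these data were known when the list was made. All 10 were found among the 43629 genes listed in the count tables, and all 10 were among the 17039 genes that passed the filter on low counts.

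Total RNA of the dorsal telencephalon of C57BL/6 mouse embryos at E14.5 was sequenced in 10 samples, 5 per genotype. Controls (Dot1l-cKO f/+) had no Cre and carried a single conditional allele of Dot1l. Dot1l-cKO embryos (Cre/+; Dot1l-cKO f/f) carried Cre and 2 conditional alleles. DOT1L is the methyltransferase of histone H3 lysine 79. The Cre driver allele is active in the forebrain from an early stage, also in cells outside the cortex. The loss of Dot1l and the presence of the Cre driver allele cannot be told apart in this comparison. Per the labels the replicates 1 to 5 of each genotype are biological replicates, and the study's methods call the genotypes littermates.

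Area patterning starts in the ventricular zone. Signalling centres at the edges of the cortical sheet (FGFs at the rostral pole, WNTs and BMPs at the medial hem, and the antihem laterally) set up graded levels of transcription factors in radial glia. Pax6 is high rostrolaterally and Emx2 caudomedially, Sp8 is high rostromedially, and Nr2f1 and Nr2f2 are high caudally. The Dmrt factors and Emx2 act medially and caudally, and Gli3 is required for the medial cortex and the hem. A bulk sample averages over these gradients, so a level here is a sum over the dissected tissue, and fewer progenitor cells and less RNA per cell cannot be told apart.

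The libraries held 54202349 to 66556034 counts. Replicates 2 and 3 of both genotypes carry the number 57 at the start of their column names in the normalised tables, whose meaning is not given in the sources used here, and had 0.0471% to 0.492% of counts in the 2 mitochondrial ribosomal RNA genes. The other 6 samples had 5.79% to 10.9%. Because the number 57 samples stand apart in this way, differences are also given within them (2 against 2) and within the other samples (3 against 3). Dot1l itself had a control mean of 37.3 ± 4.04 CPM and a Dot1l-cKO mean of 39.4 ± 11.7 CPM (SD of 5 samples each), with an edgeR adjusted p of 0.864. CPM are counts per 1e+06 of the effective (TMM) library size. The count sums all exons of Dot1l and so does not check the deletion.

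Of the 10 factors, 9 had a lower mean in Dot1l-cKO and Dmrta2 a higher mean. Pax6, Nr2e1 and Dmrt3 fell, in that their edgeR quasi-likelihood test gave an adjusted p under 0.05, and no factor rose. Among all genes tested, 7.11% were called in either direction, 5.67% as increased and 1.44% as decreased, and the 3 decreased factors are read against that 1.44%. DESeq2 called 5 factors, all decreased, adding Nr2f2 and Gli3, where it called 10.1% of all genes it tested and 3.32% as decreased. With the replicate number as a block edgeR called 4, all decreased, adding Nr2f2, where it called 9.41% of all genes and 2.91% as decreased. The median log2 fold change of the 10 was -0.44, beside -0.0056 for all genes tested. At an unadjusted p under 0.05 there were 7 factors, the other four being Emx1, Emx2, Nr2f2 and Gli3, all with lower values in Dot1l-cKO, as were 7.3% of all genes tested. The genotypes did not overlap for Nr2e1 and Gli3, and 5 factors (Pax6, Nr2f2, Nr2e1, Sp8 and Gli3) were lower in Dot1l-cKO at every replicate number, as were 11.6% of all genes tested. Of all genes tested, 8.34% were separated completely and 2.17% with the lower values in Dot1l-cKO.

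**Figure D1:**
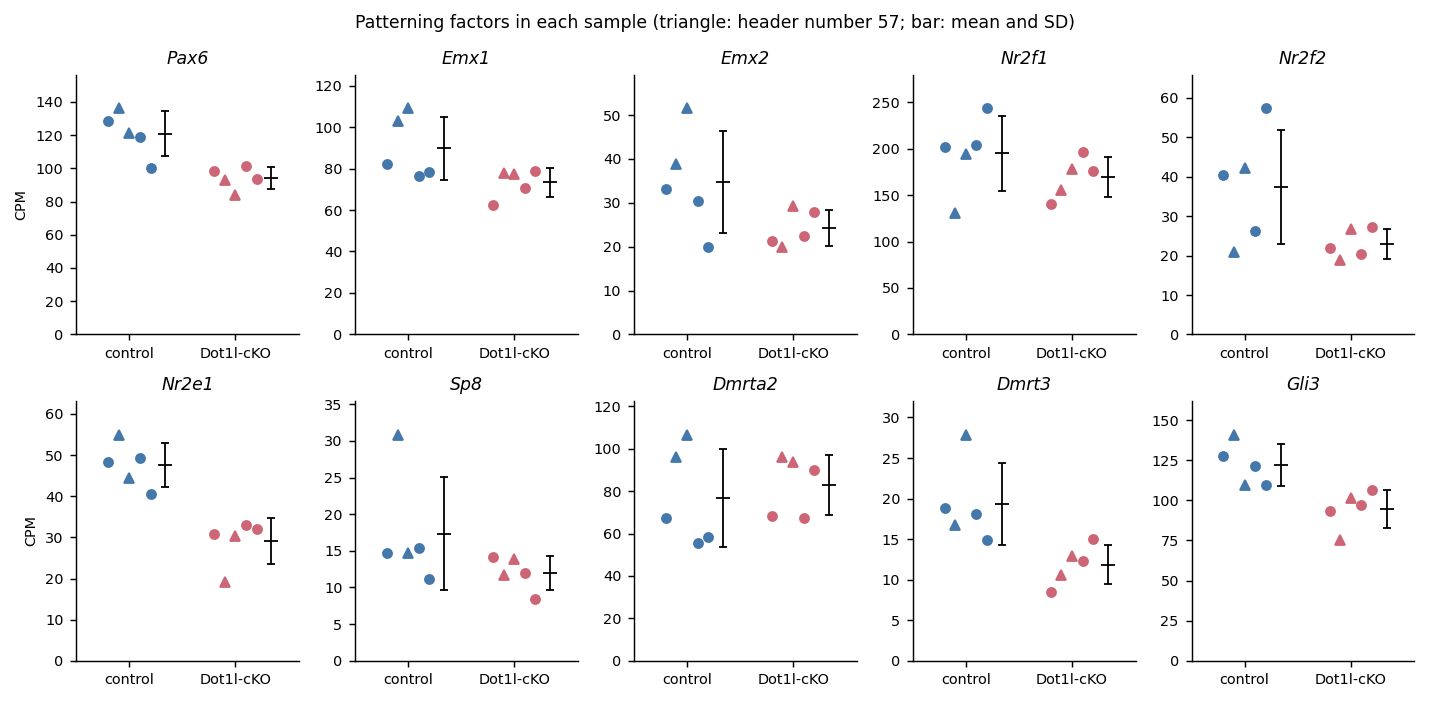
Each panel plots 1 factor in CPM from 0, with controls in blue and Dot1l-cKO in red, triangles for the number 57 samples, circles for the others, and a bar for the mean and SD of 5. The genotypes are fully separated for Nr2e1 and Gli3, and a single control point stands high for Sp8 at 30.8 CPM.

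The promoters of the 3 decreased factors are shown because these are the factors that passed the test, so that their starts can be set beside those of all genes. The windows are from RefSeq on GRCm38.p6, from 250 bases before to 50 after a transcript start, in the 5′ to 3′ direction of the gene, with the C and G of every CpG in capitals. They lie at chr2:105668646-105668945 on the plus strand for Pax6, chr10:42583541-42583840 on the minus strand for Nr2e1 and chr19:25610287-25610586 on the plus strand for Dmrt3.
Pax6: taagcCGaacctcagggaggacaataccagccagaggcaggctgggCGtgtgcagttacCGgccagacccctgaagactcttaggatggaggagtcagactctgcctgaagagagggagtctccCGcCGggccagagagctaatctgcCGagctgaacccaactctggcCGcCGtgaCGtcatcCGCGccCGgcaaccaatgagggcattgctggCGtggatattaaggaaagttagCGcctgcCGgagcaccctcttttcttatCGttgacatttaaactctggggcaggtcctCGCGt
Nr2e1: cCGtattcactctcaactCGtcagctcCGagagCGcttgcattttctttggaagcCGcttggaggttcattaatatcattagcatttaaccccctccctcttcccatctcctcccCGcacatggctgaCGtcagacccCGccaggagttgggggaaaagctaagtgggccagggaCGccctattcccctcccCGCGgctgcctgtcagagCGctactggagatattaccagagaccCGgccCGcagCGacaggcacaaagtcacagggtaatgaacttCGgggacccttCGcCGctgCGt
Dmrt3: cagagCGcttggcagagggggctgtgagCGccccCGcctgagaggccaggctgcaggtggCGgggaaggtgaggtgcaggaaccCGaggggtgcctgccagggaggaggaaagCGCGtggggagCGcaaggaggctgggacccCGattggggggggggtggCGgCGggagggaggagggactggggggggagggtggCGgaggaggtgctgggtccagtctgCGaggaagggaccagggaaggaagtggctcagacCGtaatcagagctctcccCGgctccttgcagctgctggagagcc
These windows hold 18, 19 and 15 CpG in the same order, while the median over 32851 RefSeq windows of the same 300 bases is 7. Pax6 has another window, not shown, at chr2:105682213-105682512 on the plus strand, with 16 CpG and no match to the motifs below. Over all the factors there are 14 windows, and 10 of them, in 9 of the 10 genes, hold at least 15 CpG, as 34.6% of all windows do. The exception is Nr2f2, whose only window has 2. Matches were counted on both strands for short motifs. CCAAT was found in 7 of the 14 windows (37.4% of all windows), among them those of Pax6 and Dmrt3 shown above. GGGCGG was found in 5 (35.7%), TAATTA in 2 (5.29%), AGGTCA in 1 (16.3%) and TATAAA in 1 (13.6%). The Nr2e1 window holds none of these motifs. In Emx1 a pair of its 4 GGGCGG matches overlaps. A match is a description of the sequence and not a site of binding.

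Nr2e1, also called Tlx, is an orphan nuclear receptor that keeps neural progenitors in division and acts with Pax6 in setting the border between pallium and subpallium. It lies at chr10:42561963-42583632 on the minus strand. The control replicates 1 to 5 measured 48.4, 55.0, 44.3, 49.4 and 40.7 CPM. The Dot1l-cKO replicates 1 to 5 measured 30.9, 19.2, 30.3, 33.0 and 32.1 CPM. Every Dot1l-cKO sample was below every control, and Dot1l-cKO replicate 2 was lower than the other four. The means were 47.6 ± 5.41 and 29.1 ± 5.62 CPM (SD, n = 5 each). Nr2e1 thus fell by 38.8%, a log2 fold change of -0.71 ± 0.14 (SE) and a 95% interval from -1.02 to -0.40 (edgeR adjusted p = 0.0114). The difference was -0.99 within the number 57 samples and -0.53 within the others. Without Dot1l-cKO replicate 2 it was -0.59 (adjusted p = 0.0043), and Nr2e1 passed the test in each of the 10 leave-one-out fits.

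Pax6, a paired-box homeodomain factor that drives radial glia towards neurogenesis and gives rostrolateral identity, lies at chr2:105668900-105697364 on the plus strand. In controls 1 to 5 it measured 128, 136, 121, 119 and 99.96 CPM. In Dot1l-cKO 1 to 5 it measured 98.6, 93.1, 84.2, 101 and 93.5 CPM. Of the Dot1l-cKO samples 4 were below the lowest control, and Dot1l-cKO replicate 4 was just above it. The means were 120.9 ± 13.5 and 94.1 ± 6.52 CPM (SD, n = 5 each), and Pax6 fell by 22.2%, a log2 fold change of -0.36 ± 0.087 (SE) and a 95% interval from -0.55 to -0.17 (edgeR adjusted p = 0.0294). It was -0.52 within the number 57 samples and -0.25 within the others. The call was kept in 3 of the 10 leave-one-out fits. It was lost without control replicate 1, 2 or 4 (adjusted p = 0.0801, 0.0732 and 0.0638) and without Dot1l-cKO replicate 1, 2, 3 or 5 (0.0552, 0.053, 0.0711 and 0.0577), with log2 fold changes from -0.42 to -0.32 over the 10 fits.

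Dmrt3 and Dmrta2 (also called Dmrt5) are doublesex-related factors with a medial-high gradient that act downstream of WNT signals and restrain ventral identity. Dmrt3, at chr19:25610301-25623921 on the plus strand, measured 18.9, 16.8, 27.9, 18.1 and 14.9 CPM in controls 1 to 5. In Dot1l-cKO 1 to 5 it measured 8.51, 10.6, 13.0, 12.2 and 15.01 CPM. Control replicate 3 was the highest, and only Dot1l-cKO replicate 5 reached the range of the controls. The means were 19.3 ± 5.02 and 11.9 ± 2.46 CPM (SD, n = 5 each), and Dmrt3 fell by 38.5%, a log2 fold change of -0.70 ± 0.19 (SE) and a 95% interval from -1.11 to -0.29 (edgeR adjusted p = 0.0449). The value was -0.90 within the number 57 samples and -0.54 within the others. The call lies close to the threshold. With the header number as a block the adjusted p was 0.0559. It was kept without control replicate 5 (0.0319) and without Dot1l-cKO replicate 5 (0.0337). It was lost without control replicate 1, 2, 3 or 4 (0.0932, 0.0633, 0.0624 and 0.0788) and without Dot1l-cKO replicate 1, 2, 3 or 4 (0.0949, 0.0907, 0.0732 and 0.0907). Dmrta2, at chr4:109978053-109983687 on the plus strand, measured 67.5, 96.0, 107, 55.7 and 58.5 CPM in controls 1 to 5 and 68.0, 96.0, 93.5, 67.2 and 90.1 CPM in Dot1l-cKO 1 to 5. The genotypes overlapped over nearly their whole range, with means of 76.9 ± 23.0 and 83.0 ± 14.2 CPM (SD, n = 5 each). The fitted log2 fold change was 0.11 with a 95% interval from -0.31 to 0.53 (edgeR adjusted p = 0.802), and it was -0.08 within the number 57 samples and 0.31 within the others. The interval of Dmrta2 meets that of Dmrt3 only in its lowest part, but the difference between these paralogs was not tested.

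Gli3 encodes the zinc-finger protein that, as a repressor, holds back Hedgehog response in the dorsal telencephalon. It lies at chr13:15463235-15730026 on the plus strand. Controls 1 to 5 measured 128, 141, 110, 121 and 110 CPM, and Dot1l-cKO 1 to 5 measured 93.6, 75.1, 102, 96.9 and 106 CPM. The genotypes did not overlap, although Dot1l-cKO replicate 5 came close to the lowest control. The means were 122 ± 13.1 and 94.7 ± 11.96 CPM (SD, n = 5 each), which is a log2 fold change of -0.36 ± 0.10 (SE) and a 95% interval from -0.59 to -0.14. Its edgeR adjusted p of 0.0604 missed the threshold. With DESeq2 size factors in the same test the adjusted p was 0.0496, with DESeq2 itself 0.0125 and with limma on the normalised counts 0.0441. These were the only 3 of 11 such alternatives that called it. With the replicate block in edgeR the adjusted p was 0.103, and with the header number as a block 0.0794. Gli3 was called in 0 of the 10 leave-one-out fits (edgeR adjusted p from 0.0516 to 0.141). The log2 fold change was -0.49 within the number 57 samples and -0.28 within the others.

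**Figure D2:**
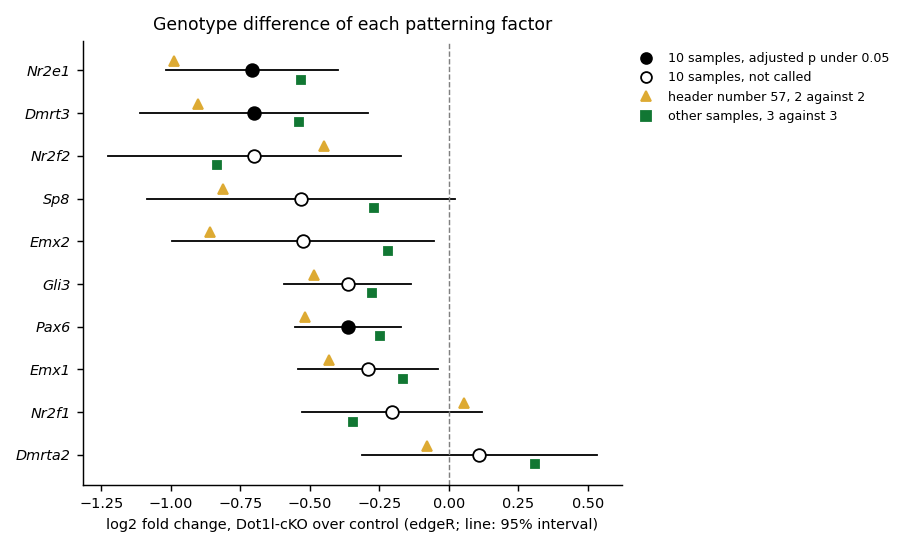
Circles give the edgeR log2 fold change of each factor over all 10 samples with its 95% interval, filled where the adjusted p is under 0.05. Triangles (number 57 samples) and squares (the others) give the same within each set. Both lie below 0 for all factors but Nr2f1, at 0.06 in the number 57 samples, and Dmrta2, at 0.31 in the others.

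Emx1 and Emx2 are homeodomain factors of the dorsal telencephalon. Emx1 marks nearly all cortical progenitors and their glutamatergic progeny, and Emx2 promotes caudomedial areas in opposition to Pax6. Emx1, at chr6:85187438-85204462 on the plus strand, measured 82.1, 103, 109, 76.3 and 78.5 CPM in controls 1 to 5 and 62.4, 78.0, 77.1, 70.7 and 78.7 CPM in Dot1l-cKO 1 to 5. Controls 2 and 3, which carry the number 57, were the high ones, and the genotypes overlapped. The log2 fold change was -0.29 with a 95% interval from -0.54 to -0.04 (edgeR adjusted p = 0.175). It was -0.43 within the number 57 samples and -0.16 within the others. Emx2, at chr19:59458372-59465357 on the plus strand, measured 33.2, 38.9, 51.5, 30.4 and 19.8 CPM in controls 1 to 5 and 21.4, 20, 29.2, 22.5 and 27.8 CPM in Dot1l-cKO 1 to 5. Control replicate 3 was the highest and control replicate 5 the lowest of all 10 samples. The means were 34.8 ± 11.6 and 24.2 ± 4.09 CPM (SD, n = 5 each), which is a log2 fold change of -0.52 with a 95% interval from -0.99 to -0.05 (edgeR adjusted p = 0.193). Without control replicate 5 the log2 fold change was -0.67 and the adjusted p 0.037. Within the number 57 samples Emx2 differed by -0.86, and within the others by -0.22.

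Nr2f1 and Nr2f2, also called COUP-TFI and COUP-TFII, are nuclear receptors. Nr2f1 sets the border between motor and sensory areas, and Nr2f2 is expressed in the caudal cortex as well as in cells of the caudal ganglionic eminence and in interneurons leaving it. Nr2f1, at chr13:78188973-78199757 on the minus strand, measured 201, 131, 194, 204 and 243 CPM in controls 1 to 5 and 141, 156, 178, 196 and 175 CPM in Dot1l-cKO 1 to 5. Control replicate 2 was the lowest and control replicate 5 the highest of all samples. The log2 fold change was -0.20 with a 95% interval from -0.53 to 0.12 (edgeR adjusted p = 0.491), at 0.06 within the number 57 samples and -0.35 within the others. Nr2f2, at chr7:70351944-70366735 on the minus strand, measured 40.4, 20.8, 42.1, 26.1 and 57.3 CPM in controls 1 to 5 and 21.9, 18.9, 26.7, 20.3 and 27.2 CPM in Dot1l-cKO 1 to 5. The controls spread widely, with replicates 2 and 4 inside the range of Dot1l-cKO. The means were 37.4 ± 14.4 and 23.0 ± 3.75 CPM (SD, n = 5 each), which is a log2 fold change of -0.70 ± 0.24 (SE) and a 95% interval from -1.23 to -0.17 (edgeR adjusted p = 0.116). With the replicate number as a block Nr2f2 was called, at a log2 fold change of -0.63 (adjusted p = 0.03), as it was by DESeq2 (0.0337) and without control replicate 2 (0.0378). The value was -0.45 within the number 57 samples and -0.84 within the others.

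Sp8, a zinc-finger factor induced by FGF8 that promotes rostral areas, is also made by progenitors and interneurons of the lateral and caudal ganglionic eminences. It lies at chr12:118846329-118852576 on the plus strand and measured 14.6, 30.8, 14.7, 15.4 and 11.2 CPM in controls 1 to 5 and 14.2, 11.7, 13.9, 11.9 and 8.36 CPM in Dot1l-cKO 1 to 5. Control replicate 2 was far above every other sample, and the remaining controls lay between 11.2 and 15.4 CPM. The log2 fold change was -0.53 ± 0.25 (SE) and a 95% interval from -1.09 to 0.02 (edgeR adjusted p = 0.265), and without control replicate 2 it was -0.22. Within the number 57 samples Sp8 differed by -0.81, and within the others by -0.27.

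The controls differed from each other in several factors. Control replicate 2 was the highest control for Sp8, Pax6, Nr2e1 and Gli3 and the lowest for Nr2f1 and Nr2f2. It was also the highest of all 10 samples for Fgf15 (22.2 CPM, others 0.967 to 10.4), Fgf17 (4.91 CPM, others 0.0467 to 2.85) and Fgf8 (0.631 CPM, others 0 to 0.195), ligands of the rostral patterning centre that were named after their values were seen. The Fgf8 value rests on 36 counts, and Fgf8 was too low to be tested. Other ligands of the FGF list described below differed. In the same sample Fgf3 was also highest (1.70 CPM, others 0 to 0.792). Fgf10 was the lowest of all samples there (0.228 CPM, others 0.33 to 1.53), and Fgf18 lay inside the range (2.70 CPM, others 1.73 to 4.16). Control replicate 5 was the highest for Nr2f1 and Nr2f2 and the lowest control for Sp8, Emx2, Pax6, Nr2e1 and Dmrt3. Control replicate 3 was the highest control for Emx1, Emx2, Dmrta2 and Dmrt3. It was also the highest control for Wnt8b, a ligand of the hem named after its values were seen (12.8 CPM, other controls 1.37 to 5.65), and Dot1l-cKO samples had 4.68 to 14.3 CPM of it. The part of the dissected region in these differences was not tested. The ratio of the highest to the lowest control was 2.75 for Sp8 and Nr2f2 and 2.60 for Emx2, and 1.28 for Gli3, 1.35 for Nr2e1 and 1.36 for Pax6.

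**Figure D3:**
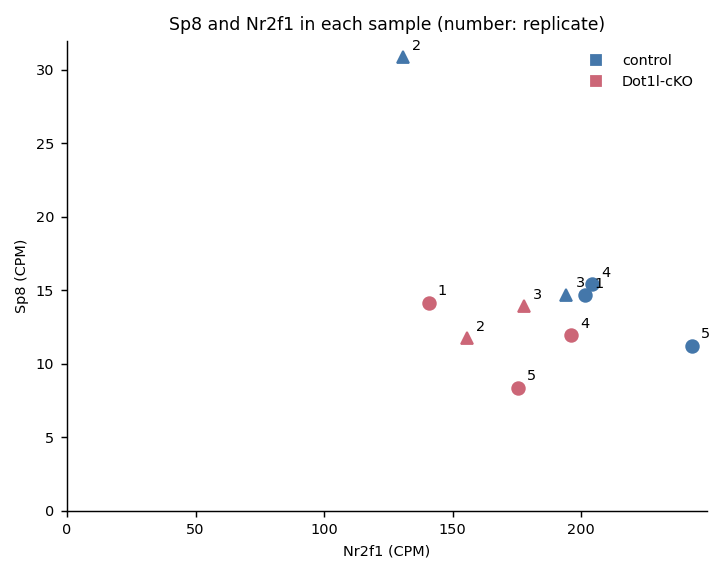
Each point is a sample, numbered by replicate, with Nr2f1 on the horizontal and Sp8 on the vertical axis in CPM, controls in blue, Dot1l-cKO in red and triangles for the number 57 samples. Control replicate 2 (131 and 30.8 CPM) and control replicate 5 (243 and 11.2 CPM) hold the lowest and the highest Nr2f1 level of the 10 samples, and the former also the highest Sp8 level.

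Levels of different genes were compared as RPKM, that is CPM per 1000 bases of merged exons. In controls the highest levels were those of Emx1 at 41.1 ± 6.90 RPKM, Nr2f1 at 38.2 ± 7.98 RPKM and Dmrta2 at 26.3 ± 7.88 RPKM (SD, n = 5). Then came Nr2e1 at 12.8 RPKM, Gli3 at 12.7 RPKM, Emx2 at 11.6 RPKM, Pax6 at 10.3 RPKM and Dmrt3 at 7.90 RPKM, and last Nr2f2 at 4.33 RPKM and Sp8 at 3.81 RPKM. Of the neighbours in this order only Dmrta2 and Nr2e1 did not overlap between samples. All other neighbours overlapped, so their order is not settled by 5 controls. In Dot1l-cKO Nr2e1 stood at 7.84 ± 1.52 RPKM, beside Emx2 at 8.06 ± 1.36 RPKM and Pax6 at 8.05 ± 0.558 RPKM (SD, n = 5 each). The level of Pax6 per length depends on its gene model, which merges 26 transcripts into 11694 bases of exons.

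**Figure D4:**
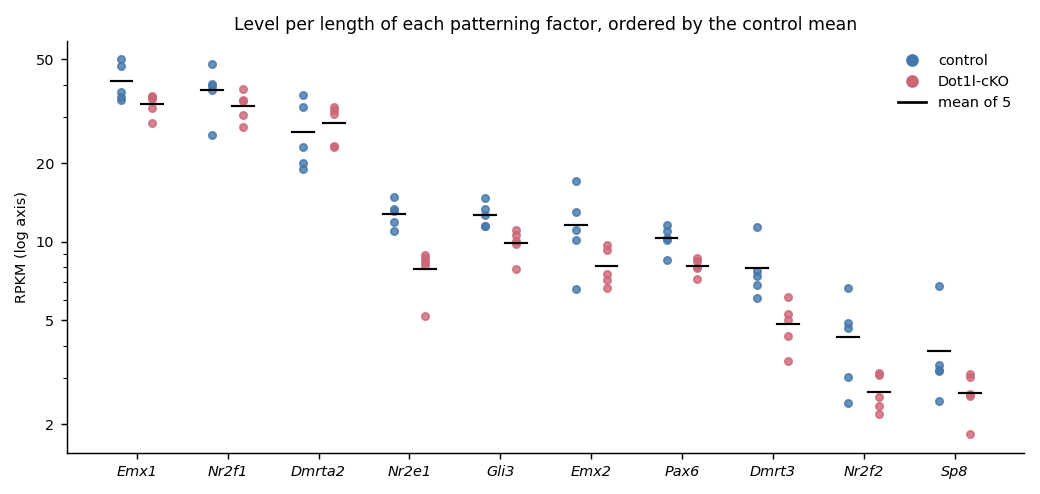
Points give RPKM of each factor in each sample on a log axis, controls in blue and Dot1l-cKO in red, with a line at the mean of 5, in the order of the control means. Emx1, Nr2f1 and Dmrta2 form the upper group, with control means of 41.1, 38.2 and 26.3 RPKM.

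Genes on the opposite strand overlap 5 of the factors, among them Emx2os and Pax6os1. Counting was strand-specific, and these genes held 498 counts beside 63986 for Pax6 and 3094 beside 17669 for Emx2 over the 10 samples. None of the 5 was called, and their median log2 fold change was -0.17.

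For each decreased factor the 2 genes with the most similar pattern were sought among all genes tested, by the root mean square (RMS) difference of log2 CPM centred on its mean over the 10 samples. They were Clic4 and Zfp599 for Pax6 (RMS difference 0.0789 and 0.0816 log2 units, beside 0.217 for the pattern of Pax6 itself). They were Cdk6 and Asap1 for Nr2e1 (0.101 and 0.124, beside 0.430) and Cachd1 and AW047730 for Dmrt3 (0.178 and 0.189, beside 0.452). None of the 6 is another patterning factor. With only 2 genes taken out of all tested, this does not show whether the factors vary together.

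The genes around these factors were examined in fixed lists. Of 12 other regional transcription factors 3 fell and none rose, with a median log2 fold change of -0.30. Among them were Lhx2, a selector of cortical identity (from 275.5 ± 33.8 to 119 ± 10.9 CPM), and Otx1, a homeodomain factor of cortical progenitors and deep layers (from 15.3 ± 2.07 to 6.62 ± 1.45 CPM; SD, n = 5 each). Their log2 fold changes were -1.21 and -1.21 (edgeR adjusted p = 0.000119 and 0.00139), both larger in size than that of any of the 10 patterning factors. With the replicate block Nr4a2 was also called, as increased (0.52, adjusted p = 0.0135). The genes given here and in the other lists for their call under the block were named after their values were seen.

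Of the 9 family relatives 6 were tested and none was called (median -0.25). Of 12 Hedgehog pathway genes 11 were tested and none was called in the main edgeR test (median -0.34). DESeq2 called Cdon (adjusted p = 0.00617), Gli2 (0.00719) and Boc (0.0131), all as decreased and named after their values were seen. Gli2, which is also on the list of family relatives, did not overlap between genotypes (19.8 to 31.6 CPM in controls and 5.17 to 19.4 CPM in Dot1l-cKO). Its edgeR log2 fold change was -0.96, with an edgeR adjusted p of 0.0634 and 0.0302 with the replicate block. Of 16 genes of the FGF signal and its response 15 were tested and 1, Spry2, a feedback inhibitor of receptor tyrosine kinases, rose (0.41, edgeR adjusted p = 0.0182). With the replicate block Etv4 (0.72, adjusted p = 0.0267) and Fgf10 (0.87, 0.0352) were also called as increased. Fgf10 was low, with 13 to 81 counts per sample. It was not called by the main edgeR test (adjusted p = 0.22), DESeq2 (0.171) or edgeR with the header number as a block (0.0838). Fgf8 was not tested because its counts were too low. None of the 6 antihem signals was called (median 0.03). Of 12 genes with area-restricted expression in the cortex, Crym (2.07) and Bhlhe22 (0.76) rose and Epha5 fell (-0.41), with edgeR adjusted p of 0.000346, 0.00165 and 0.00443. With the replicate block Epha7 was also called as increased (0.32, adjusted p = 0.0223). Crym encodes a thyroid hormone binding protein, Bhlhe22 a bHLH factor of postmitotic area identity and Epha5 an ephrin receptor. Of 8 genes regarded as Pax6 targets, a list that also holds Nr2f1, only Fabp7, a fatty acid binding protein of radial glia, was called by edgeR. It rose (0.62, edgeR adjusted p = 0.0122) while Pax6 fell. Tle1 of this list, named after its values were seen, was lower without overlap (135 to 149 CPM in controls and 118 to 128 CPM in Dot1l-cKO). Its edgeR log2 fold change was -0.17, with an adjusted p of 0.0993 by edgeR and 0.00439 by DESeq2.

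**Figure D5:**
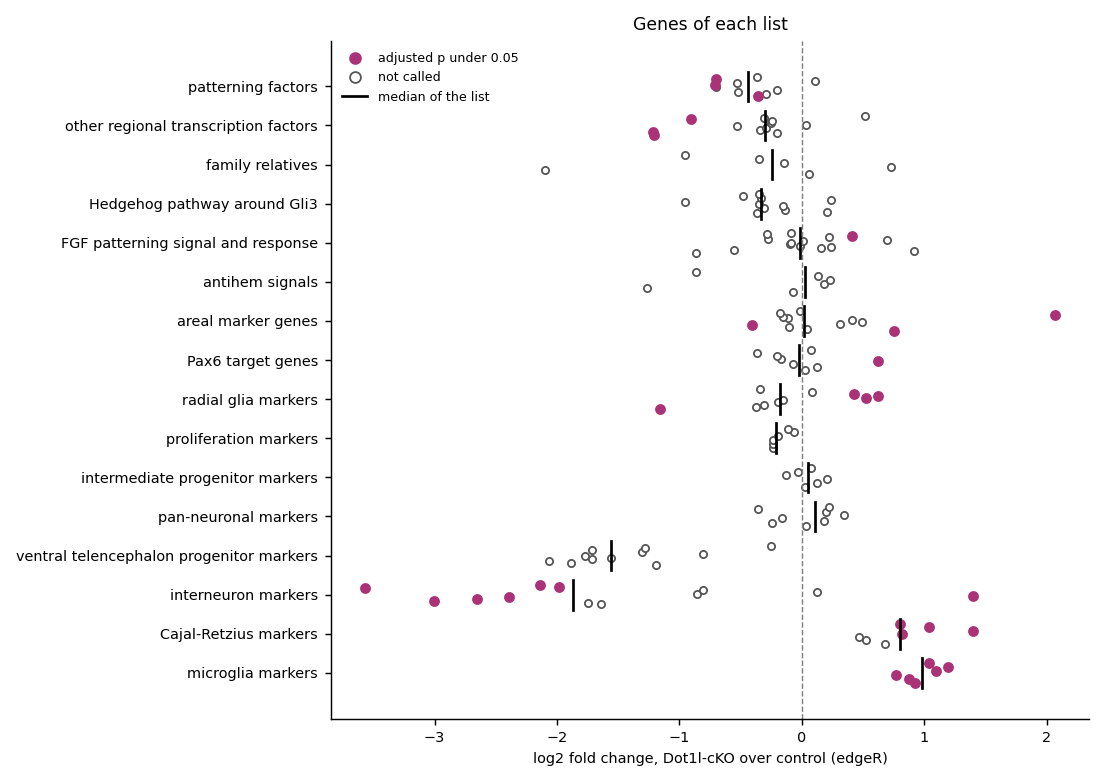
Each circle is a gene's edgeR log2 fold change, filled where the adjusted p is under 0.05, with a line at the median of its list. The patterning factors lie at a median of -0.44, and the ventral progenitor and interneuron lists lie furthest below 0, with medians of -1.56 and -1.87.

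The cells that make the patterning factors were examined by their markers. Of 10 radial glia markers Fabp7, Vim (0.53) and Slc1a3 (0.43) rose and Sox1 fell (-1.16), with edgeR adjusted p of 0.0122, 0.00451, 0.00447 and 0.000867, and the list's median was -0.18. With the replicate block Sox2 (-0.38, adjusted p = 0.00906) and Prom1 (-0.33, 0.03) were also called as decreased, which makes 3 in each direction. The list's summed level was 2537 to 2923 CPM in controls and 3138 to 3451 CPM in Dot1l-cKO. The higher sum lies mostly in Vim (mean 919 and 1323 CPM) and Fabp7 (429 and 660 CPM), while Sox1, Sox2, Hes1, Hes5, Nes and Prom1 had lower means in Dot1l-cKO. None of 6 proliferation markers was called, although all 6 had negative log2 fold changes (median -0.21), and their sum was 1647 to 2193 CPM in controls and 1573 to 1870 CPM in Dot1l-cKO. None of 6 intermediate progenitor markers (median 0.05) or of 8 pan-neuronal markers (median 0.11) was called, although with the replicate block Neurod2 was (0.34, adjusted p = 0.0206). The summed level of the 10 patterning factors was 716 to 821 CPM in controls and 560 to 654 CPM in Dot1l-cKO. The part of progenitor number in the lower levels of Nr2e1, Pax6 and Dmrt3 was not tested.

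Markers of the ventral telencephalon and of interneurons, which migrate from it into the cortex, were examined next. Of 12 ventral progenitor markers 11 were tested, none was called, and all 11 had negative log2 fold changes (median -1.56). Their sums overlapped between genotypes, at 48.4 to 278 CPM in controls and 27.9 to 111 CPM in Dot1l-cKO. Of 12 interneuron markers 6 fell and 1 rose (median -1.87), and their sum was 111 to 324 CPM in controls and 66.9 to 132 CPM in Dot1l-cKO. The 1 that rose, Calb2, is also on the list of Cajal-Retzius markers. The decreased ones were led by Npas1 (-3.57), Lhx6 (-3.00), Sst (-2.65) and Npy (-2.39), with edgeR adjusted p of 0.00348, 0.00187, 0.0275 and 0.0274. These are a transcription factor of interneurons, the factor that marks cells of the medial ganglionic eminence, and a pair of interneuron neuropeptides. Ventral cells also make Sp8, Nr2f2 and Gli2. The part of ventral tissue in their lower levels, and in the levels of the other patterning factors, was not tested. In control replicate 2, where Sp8 was highest, the ventral sum was 138 CPM and thus inside the range of the controls, and in control replicate 5, where Nr2f2 was highest, it was 192 CPM. The defining subpallial gene Nkx2-1, chosen after its values were seen, was near 0 in 9 samples (0.0483 to 0.339 CPM) and measured 3.61 CPM in control replicate 2.

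Of 7 Cajal-Retzius markers 4 rose (median 0.80) and none fell, led by Calb2 (1.40), Ebf2 (1.04), Lhx5 (0.82) and Ebf3 (0.80), with edgeR adjusted p of 0.0214, 0.00442, 0.0443 and 0.00656. The sum of the list was 409 to 629 CPM in controls and 619 to 1192 CPM in Dot1l-cKO. Most of it was Reln, with 363 to 579 CPM in controls and 517 to 1077 CPM in Dot1l-cKO, which was not among these 4 (log2 fold change 0.68, edgeR adjusted p = 0.0704) and was called with the replicate block (0.00412). All 6 microglia markers rose (median 0.98), led by Fcrls, P2ry12, C1qa and Cx3cr1 (0.93 to 1.19, edgeR adjusted p from 0.000231 to 0.0113), with sums of 33.9 to 54.7 CPM in controls and 70.5 to 98.6 CPM in Dot1l-cKO. With the replicate block 5 of them were called, and Aif1 was not (adjusted p = 0.073). None of the choroid plexus and hem, endothelial and pericyte, meninges or erythroid markers was called, but their sums varied between samples, from 10.2 to 660 CPM for the choroid plexus and hem list in controls and from 18.4 to 207 CPM in Dot1l-cKO. The choroid plexus and hem sum was high in controls 1 and 3 (543 and 660 CPM). The part of these other cell types in the levels of the patterning factors was not tested.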

How the data were processed

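RNA-seq counts of 10 samples were analysed, 5 control and 5 Dot1l-cKO, grouped by their titles. Per the labels and the study's methods, the authors trimmed reads with Trim Galore 0.2.8, mapped them with TopHat2 2.0.9 to mm10 guided by an Ensembl annotation, and counted read pairs per gene with HTSeq 0.6.0 in reverse-stranded mode. The deposited values are raw counts, and a normalised signal that the authors made by dividing those counts by DESeq2 1.6.1 size factors. Within each sample the ratio of both values was constant over genes. No column was left unmapped. Gene identifiers were matched to GENCODE vM21 on GRCm38 (42462 of 43629), whose coordinates and exon lengths are given, and unmatched identifiers held 0.268% of counts. Replicates differed beyond sampling noise (chi-square per degree of freedom at least 30.8).

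Genotypes were compared over all genes with edgeR 4.0.16 in R 4.3.3 (filterByExpr, TMM, quasi-likelihood test, no covariate), with Benjamini-Hochberg adjusted p under 0.05 as the call. Intervals are 95% and use the test's degrees of freedom. The standard error was derived from the F statistic and is approximate. The test was tried on simulated counts. Alternatives were DESeq2 1.42.0, DESeq2 size factors, other count filters, blocks for the replicate or header number, fits within header numbers, removal of mitochondrial genes, limma 3.58.1 on log2 of the normalised counts with a pseudocount of 1, and each sample left out. Removal of replicate 2 of both groups was added after seeing the data.

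The labels number replicates 1 to 5 in both groups. After each group mean was subtracted, log2 CPM correlated over genes at 0.131 to 0.597 within the 5 same-number pairs. The average between different numbers, -0.07, is tied to this by the subtraction and is not separate evidence. Same-number samples also share the number that opens their column names (51, 57, 57, 90 and 154). Litter and what that number stands for cannot be told apart as sources of the correlation. With this and the littermate design, the numbers were used as pairs in the block fits only. The main test, with its calls, intervals and shares of all genes, is unpaired.

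Genes named are the 10 factors, Dot1l, up to 4 called genes with the largest changes per list and, for each called factor, the 2 nearest genes in pattern. Another 2 genes of this rule are not reported here. Others are said to be chosen after their values were seen. The factors and all lists were chosen with earlier results of these data known. No amino acid sequences were used here. Counting error alone is small, since the factors had 451 to 15071 counts per sample.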

Additional observations from a re-analysis of the deposited data

Results flagged for a closer look

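Samples that stood apart from the other four of their group on the log2 CPM scale were sought in 70 groups of 5 values, where chance flags about 1 group in 20. There were 3 such values. Nr2e1 in Dot1l-cKO replicate 2 was low, at 4.27 log2 CPM against 4.92 to 5.05 in the other four, a gap of 0.84 of the range of the group. The decrease of Nr2e1 without that sample is given above (log2 fold change -0.59). Dot1l was low in the same sample, at 4.33 log2 CPM against 5.31 to 5.69, a gap of 0.717 of the range. Lhx5, a Cajal-Retzius marker, was low in Dot1l-cKO replicate 4, at 2.99 log2 CPM against 3.13 to 3.17, a gap of 0.775 of the range.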

How the results depend on the processing

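Of the 1212 genes called, 966 increased and 246 decreased, DESeq2 called 2001 (658 decreased), and 5 patterning factors rather than 3, all 5 decreased. With the replicate block the decreased genes numbered 495, and with the header number as a block 597. Apart from Nr2f2, given above, the replicate block changed the call of none of the 10 factors. Within the number 57 samples, 2 against 2, 1 gene was called, 1 increased and 0 decreased, and 0 factors. Within the others, 3 against 3, 745 genes were called, 590 increased and 155 decreased, and 1 factor (Nr2e1, decreased). Fewer samples enter these fits. Without replicate 2 of both groups, chosen after seeing the data, 717 genes were called, 588 increased and 129 decreased, and 1 factor (Nr2e1, decreased), while Pax6 (-0.31) and Dmrt3 (-0.71) were not called. Leaving out 1 sample gave 750 to 1357 genes, 624 to 1076 increased and 126 to 343 decreased, with 1 to 4 factors called, all decreased. Of these fits, those without control replicate 1 (750) or 4 (779) moved the count of all genes by over 1.5 times, and those without control replicate 1, 2 or 4 (126, 134 and 136) or Dot1l-cKO replicate 1, 3 or 4 (149, 157 and 144) that of the decreased genes. Direction reversed for Nr2f1 (0.056) and Dmrta2 (-0.077) in the number 57 samples, for Dot1l there (-0.37) and with limma (-0.0058), for Emx2os outside number 57 (0.056) and for A830082K12Rik in number 57 (0.25). With 1 sample left out Dot1l ranged from -0.046 (without Dot1l-cKO replicate 5) to 0.25 and A830082K12Rik from -0.11 to 0.013 (without Dot1l-cKO replicate 5). The cause was not tested. Of 420 recomputed counts of called genes in the other lists 56 moved by over 1.5 times, 36 upward and 20 downward. The other 8 factors kept their direction in every alternative. Depth did not allow a test of Fgf8, which was too low to pass the filter.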
